A study of Arabidopsis thaliana with 17 samples.

Results

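Root cells of Arabidopsis thaliana that had been bioprinted were compared after 3 days and after 1 day in the printed construct. In bioprinting, living cells are suspended in a printable material and laid down by a machine in a set shape. Both groups were constructs made from differentiated root tissue of plants with the genotype pSCR:SCR-mCherry, in which the SCARECROW (SCR) promoter, active in the endodermis and around the stem cell niche of the root, drives a fusion of SCR with a red fluorescent protein. There were 2 libraries at day 3 and 3 libraries at day 1, 5 of the 17 libraries of the series. The other 12 were day 0 samples, 3 each of differentiated constructs, meristematic constructs and isolated cells of either tissue, all with the same genotype. The labels name no plant age, culture medium, light or printed material, nor which plants went into which library.

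Genes entered the comparison where the authors' pooled FPKM was 1 or more on either day. FPKM is the number of sequenced fragments per length of transcript, scaled to the fragments mapped in all. This kept 17611 of 33201 entries of the table. The entry nearest inside the threshold had an FPKM of 1 on its higher day and the nearest outside had 0.9995, with 221 entries between 1 and 1.1 and 257 between 0.9 and 1.

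A plant cell released from its neighbours loses its position in the organ, and positional cues hold much of root cell identity in place. In the intact root, the endodermis first builds the Casparian strip, a ring of lignin that seals the space between cells, and later coats itself with suberin, a wax-like polyester. Wounded or cultured root cells can also re-enter the cell cycle, a step preceded by nucleolar growth and new ribosomes. The day 3 to day 1 comparison asks what changed late, after the first day in the construct.

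Per gene, 1 pooled value per day was available, so the replicate spread of a gene cannot be shown and no SD is given. The call rests on the q-value of the day 3 to day 1 comparison in the authors' deposited table. A gene was called where that q was under 0.05, and the words rose and fell are kept for called genes. All ratios below are log2 of the day 3 FPKM over the day 1 FPKM, so that 1 is a doubling and a negative value means lower at day 3. A library that holds fewer cells of a type cannot be told apart from cells that hold less of that RNA.

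At day 3, 1035 genes were higher and 1493 were lower than at day 1, which is 5.88% and 8.48% of the 17611 genes tested. These shares are the background against which the gene lists below are read. With a change of at least 2-fold required as well, 911 genes were higher and 1390 lower, and at 4-fold, among genes above 0 on both days, 153 were higher and 412 lower. The median ratio of all tested genes was -0.030, with quartiles of -0.537 and 0.503. The genes that rose had a median FPKM of 19.1 at day 3 and 7.54 at day 1, and the genes that fell had a median of 6.69 at day 3 and 20 at day 1. The first day in the construct gave 5865 calls among 17993 genes by the same rule, against 2528 from day 1 to day 3; the 2 comparisons share the day 1 libraries and differ in library number.

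**Figure D1:**
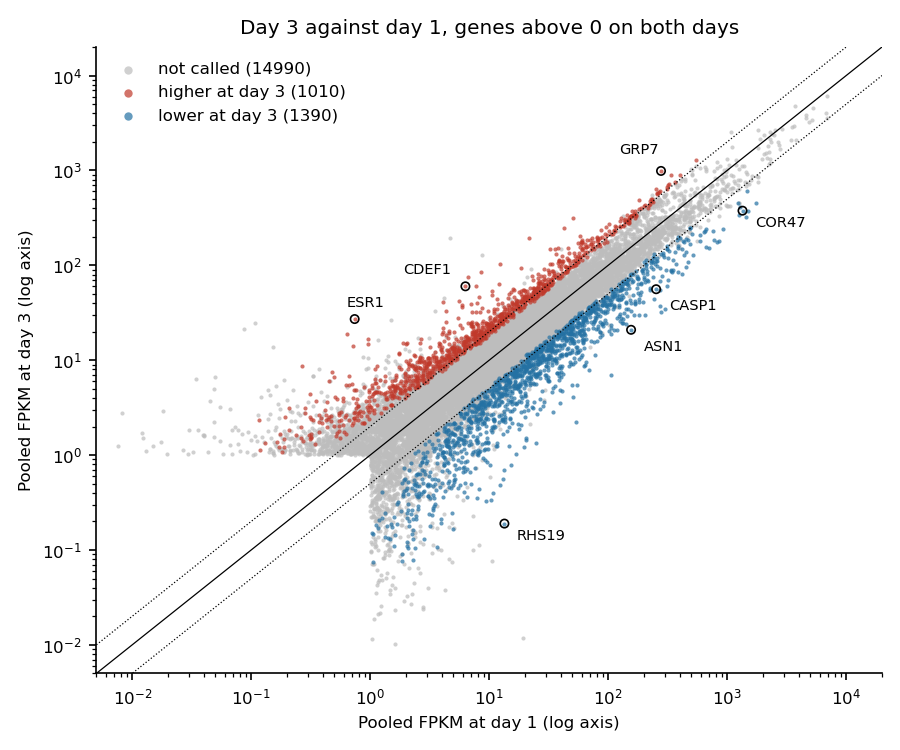
Each point is a gene, with its pooled FPKM at day 1 on the x axis and at day 3 on the y axis, both logarithmic. The solid line marks equal values and the dotted lines a 2-fold difference. Red points were called higher at day 3 and blue points lower, by a q under 0.05 in the authors' deposited table; circled genes are named. The blue cloud reaches farther from the diagonal than the red one, as the counts of 412 and 153 genes past 4-fold show.

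The share of genes called grew with the level. Among genes whose higher day lay between 1 and 5 FPKM, 9.93% were called, and among genes at 100 FPKM or more, 21%. Among tested genes 227 called ones changed by less than 2-fold, and the smallest called ratio was 0.838 in size. The smallest q of the authors' deposited table, 5.51e-04, was shared by 409 called genes, so these cannot be ranked by q.

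Suberin genes rose. Of 16 tested genes of suberin synthesis and export, 8 rose and none fell, with a median ratio of 0.82. FAR1 (AT5G22500), a reductase that makes suberin's fatty alcohols, stood at 6.76 FPKM at day 3 and 0.663 at day 1, a ratio of 3.35. The ABC exporter ABCG2 stood at 15.2 FPKM at day 3 and 2.03 at day 1. CYP86A1, the hydroxylase that makes suberin's omega-hydroxy acids, stood at 25.3 FPKM at day 3 and 4.30 at day 1. The transcription factor MYB93, which is expressed in endodermis over new lateral roots, had 5.13 FPKM at day 3 and 1.03 at day 1. FAR4, FAR5, ABCG20 and the acyltransferase GPAT5 also rose, by ratios of 2.09, 1.48, 2.08 and 1.02. The other 8 genes were not called. Among them the feruloyl transferase ASFT had 59.9 FPKM at day 3 and 69.4 at day 1, and MYB41, an activator of suberin genes, had 0.45 at day 3 and 2.14 at day 1. Several of these genes were near 0 before culture. CYP86A1, for example, had a pooled FPKM of 0.21 at day 0, 4.30 at day 1 and 25.3 at day 3.

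Genes of the Casparian strip moved the other way. Of 15 tested genes of the strip and of endodermal identity, 8 fell and 1 rose, and the median ratio was -1.47. CASP1 (AT2G36100), which encodes a membrane scaffold protein of the strip, had 56.0 FPKM at day 3 and 253 at day 1, and CASP2 had 19.9 at day 3 and 84.7 at day 1. The peroxidase PER64 and the dirigent protein ESB1, which act in making the strip's lignin, fell by 2.29 and 1.81 on the log2 scale. MYB36, the transcription factor that switches the strip genes on, fell to 2.4 FPKM at day 3, against 13.1 at day 1. The regulators above them did not follow. SHR (SHORTROOT), the mobile factor that specifies endodermis, rose to 12.2 FPKM at day 3, against 3.99 at day 1. SCR (AT3G54220), the gene carried by the transgene, had 14.8 FPKM at day 3 and 11.6 at day 1, which did not pass (q 0.478 in the authors' deposited table). Reads of the transgene and of the native SCR gene cannot be separated in this value.

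**Figure D2:**
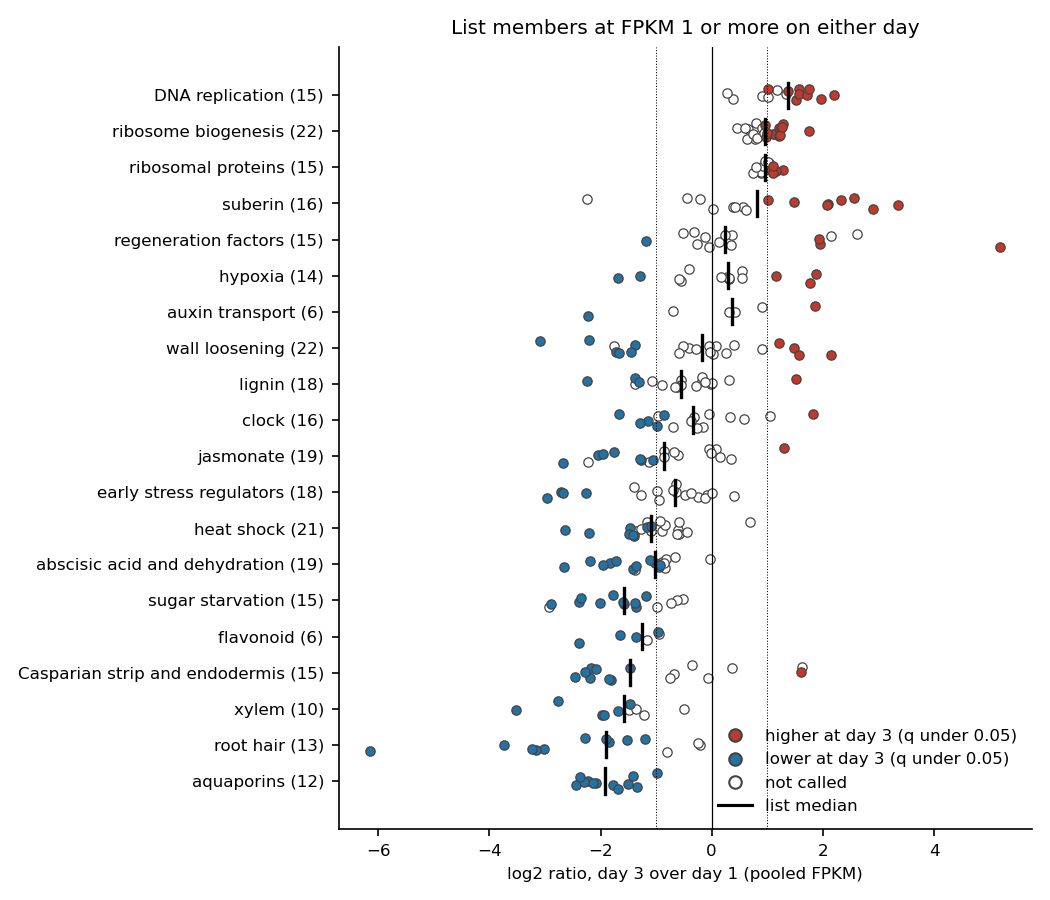
Each row is a gene list, with the number of plotted members in brackets, and each point is a member's log2 ratio of day 3 over day 1. Filled points were called by the authors' deposited q-value, open points were not, vertical bars are list medians and dotted lines mark 2-fold. In the plotted lists all DNA replication, ribosome biogenesis and ribosomal protein members lie right of 0, and all root hair, xylem, sugar starvation and aquaporin members left of it.

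Marker genes of the endodermis and of suberized endodermis were summed as a check. The 4 markers of suberized endodermis summed to 118 FPKM at day 3 and 85.0 at day 1, with 3 of 4 called higher. The 5 endodermis markers were CASP1, CASP2, CASP5, MYB36 and SCR. They summed to 119 FPKM at day 3 and 457 at day 1, with 4 of 5 called lower and SCR not called. These markers overlap the lists above and are no separate evidence.

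DNA replication genes rose. Of 15 tested genes, 9 rose and none fell, with a median ratio of 1.38, and the lowest ratio was 0.27. TSO2 (AT3G27060), a small subunit of ribonucleotide reductase that supplies DNA precursors, had 150 FPKM at day 3 and 32.5 at day 1. RNR1, the large subunit of that enzyme, had 39.4 FPKM at day 3 and 12 at day 1. The replicative helicase is a ring of 6 different MCM proteins, and 4 of its genes rose (MCM2, MCM3, MCM4 and MCM5, with ratios of 1.52, 1.96, 1.57 and 1.57). MCM6 and MCM7 had ratios of 1.01 and 1.34 and were not called. ETG1, ORC6 and the sliding clamp gene PCNA1 rose as well, by 1.76, 1.38 and 1.01.

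Genes of other phases of the cell cycle were mostly low or not called. Of 25 mitosis genes, 18 were below 1 FPKM on both days, and of the 7 tested 1 rose. That gene was CDKB1;1, a plant-specific cyclin-dependent kinase, with 13.1 FPKM at day 3 and 5.12 at day 1. Of 19 tested G1 regulators none was called. The authors' deposited table gives no unadjusted p for them, and their median ratio was -0.079 as deposited and 0.056 after rescaling to TPM. The retinoblastoma homologue RBR1 had 24.7 FPKM at day 3 and 21.2 at day 1, and the kinase CDKA;1 had 30.6 at day 3 and 19.6 at day 1. Of 14 histone genes, 1 rose and 2 fell. The one that rose, AT5G10390, which its product name gives as a histone, had 13.5 FPKM at day 3 and 5.03 at day 1, and HTA13 and HTA10, both of histone H2A, fell by 1.26 and 1.01. Among DNA damage genes the regulator NAC044 rose, with a ratio of 1.85.

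Ribosome-making genes rose with those of DNA replication. Of 22 tested genes of ribosome biogenesis 11 rose and none fell, the median ratio was 0.97, and the range was 0.45 to 1.75. NUC-L2 (AT3G18610), a nucleolin, had 49.6 FPKM at day 3 and 14.8 at day 1. CBF5, the pseudouridine synthase of box H/ACA particles, had 156 FPKM at day 3 and 64.6 at day 1. The box C/D core genes NOP56 and FIB2 rose by 1.21 and 1.23. Of 15 genes of cytosolic ribosomal proteins 5 rose and none fell. All 15 had ratios between 0.75 and 1.29. RPS5B and RPS5A, a pair of near-identical copies whose reads may be split uncertainly, had 197 and 374 FPKM at day 3, and 80.6 and 167 FPKM at day 1.

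**Figure D3:**
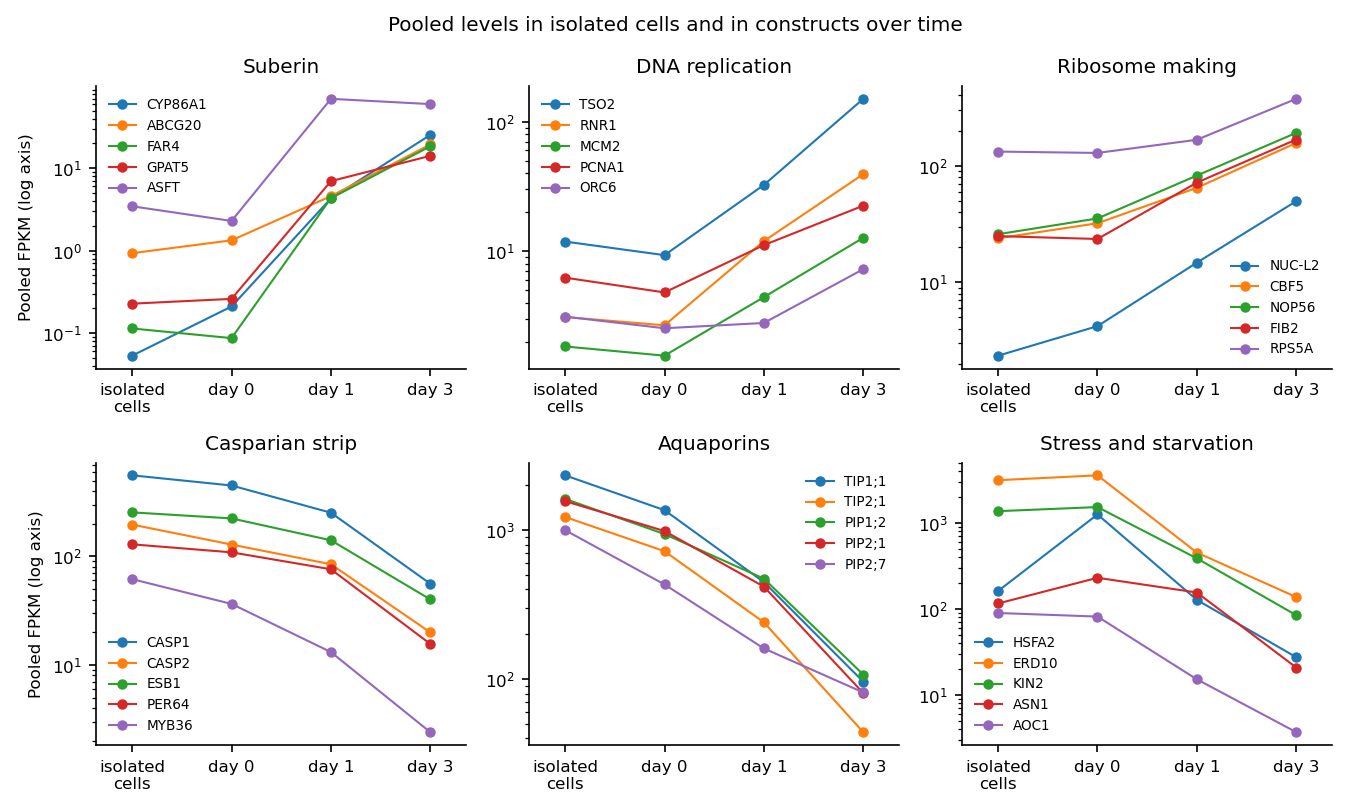
Pooled FPKM (log axis) of genes from 6 lists in isolated differentiated cells and in constructs of days 0, 1 and 3, evenly spaced on the x axis; lines join values of a gene and carry no error. The suberin, replication and ribosome genes drawn are higher at day 3 than at day 1 except ASFT, which was not called, and those in the lower panels are lower.

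Among regeneration factors, 3 of 15 tested genes rose and 1 fell. ESR1 (AT1G12980), an AP2/ERF factor that enables shoot regeneration from callus, had the highest ratio among called genes with a symbol and at least 10 FPKM on the higher day. It had a pooled FPKM of 0.00851 at day 0, 0.740 at day 1 and 27.1 at day 3, a ratio of 5.2 from day 1 to day 3. WOX11, which marks the founder step of new roots from cut tissue, had 32.4 FPKM at day 3 and 8.4 at day 1. PLT7, a PLETHORA factor, had 3.72 FPKM at day 3 and 0.974 at day 1. LBD16, a lateral root and callus factor, fell to 9.08 FPKM at day 3, against 20.5 at day 1. CUC2 and PLT5 had ratios of 2.61 and 2.14 at low levels, with 2.33 and 1.38 FPKM at day 3 and 0.383 and 0.313 at day 1, and were not called. The wound factors WIND1 and ERF115 were not called, with 99.8 and 63.3 FPKM at day 3 and 90.5 and 90.1 at day 1. Of the embryo and seed list only 3 of 9 genes were above 1 FPKM, and of these AGL15 rose to 10.6 FPKM at day 3, against 2.71 at day 1. Of 8 root meristem genes 3 were tested and UPB1 fell by 1.36, while the stem cell niche factor WOX5 had 2.26 FPKM at day 3 and 6.59 at day 1 without being called.

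Auxin, cytokinin and ethylene lists held few calls. Of 6 auxin transport genes 1 rose and 1 fell, with a median ratio of 0.36. The one that fell was PIN2, which carries auxin through epidermis and cortex, with 4.03 FPKM at day 3 and 18.9 at day 1. Of 16 auxin response genes, the conjugase gene GH3.1 rose by a ratio of 1.22 and the repressor gene IAA17 fell by 2.03. Of 10 cytokinin genes, the response regulator ARR8 fell by 2.03 and no other was called. None of 11 ethylene genes was called, and their ratios ran from -0.61 to 0.88.

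All 12 aquaporin genes fell, with ratios between -2.45 and -0.98. Aquaporins are the water channels of the plasma membrane (PIP) and of the vacuole (TIP). TIP2;1 had 44.0 FPKM at day 3 and 240 at day 1. PIP2;1 had 80.5 FPKM at day 3 and 417 at day 1. TIP1;2 and TIP1;1 had 55.3 and 96.1 FPKM at day 3, and 270 and 448 at day 1. Each of the 12 also had a lower pooled FPKM at day 1 than at day 0. TIP1;1, for example, had a pooled FPKM of 1359.9 at day 0, 448 at day 1 and 96.1 at day 3. Members with close copies, such as PIP2;2 and PIP2;3, may share reads.

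Root hair genes fell as a group. Of 13 tested, 10 fell and none rose, and the median ratio was -1.90. RHS19 (AT5G67400), a peroxidase gene specific to root hairs, had 0.190 FPKM at day 3 and 13.4 at day 1, a ratio of -6.15. The wall protein gene PRP3 had 1.52 FPKM at day 3 and 20.3 at day 1. RHS13 and ADF8, the second an actin-depolymerizing factor, fell by 3.23 and 3.16. The transcription factor RHD6, which starts hair development, had 15.4 FPKM at day 3 and 27.0 at day 1 and was not called, while RSL4, which acts below it, fell by 1.2. The 6 marker genes of root hair cells summed to 32.8 FPKM at day 3 and 143 at day 1, and all 6 fell. Of 4 tested epidermal patterning genes none was called.

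Xylem genes fell likewise. Of 10 tested genes of xylem and secondary walls, 6 fell and none rose, with a median ratio of -1.58. CESA4 and CESA8, subunits of the cellulose synthase of secondary walls, had 0.552 and 0.213 FPKM at day 3 and 3.74 and 2.43 at day 1. The vessel protease genes XCP1 and XCP2 fell by 1.46 and 1.97, and the factors MYB46 and VND6 by 1.93 and 1.68. Of 18 lignin genes 3 fell, among them the laccase gene LAC17 by 2.24, and FAH1, an enzyme of syringyl monolignols, rose by a ratio of 1.51. Of 5 tested phloem genes OPS rose to 53.9 FPKM at day 3, against 28.3 at day 1. The root cap factors BRN1 and BRN2 fell by 2.24 and 2.31, while CEL3, a cellulase gene of the root cap, rose to 638 FPKM at day 3, against 253 at day 1.

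Genes of wall loosening split. Of 23 tested, 4 rose and 7 fell. Those that rose were EXLA2, XTH24, XTH23 and EXPA15, with ratios of 2.15, 1.56, 1.48 and 1.21. XTH14 and XTH17, both of enzymes that cut and rejoin xyloglucan, fell by 3.08 and 2.2, and XTH12 was listed at 0 at day 3 and 2.97 FPKM at day 1. Of 15 genes of primary wall synthesis, CTL1 fell by 1.03 and no other was called. Of 11 tubulin genes TUB1 and TUB5 fell, with ratios of -1.98 and -2.48. Among 11 genes often used as references 2 fell, ACT2 with 90.6 FPKM at day 3 and 240 at day 1, and ACT8 with 111 at day 3 and 253 at day 1. The elongation factor gene AT5G60390 of the same list had 1051 FPKM at day 3 and 590 at day 1 and was not called.

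Genes of several stress responses fell. Of 21 heat shock genes, 8 fell and none rose, with a median ratio of -1.09. HSFA2 (AT2G26150), the factor that prolongs the heat response, had a pooled FPKM of 1257 at day 0, 128 at day 1 and 27.6 at day 3. HSFA7A fell to 6.19 FPKM at day 3, against 38.6 at day 1. The most abundant small heat shock genes were not called. HSP17.6A had 3366 FPKM at day 3 and 5206 at day 1. Of 11 chaperone genes of the endoplasmic reticulum, BIP3 and ERDJ3A fell, by 1.81 and 1.00.

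Of 19 genes of abscisic acid and dehydration, 11 fell and none rose. NCED3, the rate-limiting enzyme of abscisic acid synthesis under drought, had 0.557 FPKM at day 3 and 3.52 at day 1. The dehydration genes KIN2, KIN1 and COR47 fell by 2.19, 1.96 and 1.84, with COR47 still at 377 FPKM at day 3, against 1345 at day 1. Of 19 jasmonate genes 7 fell, among them the cyclase genes AOC1 and AOC2 by 2.04 and 1.76 and the repressor genes JAZ9 and JAZ10 by 2.68 and 1.95. The lipoxygenase gene LOX4 rose at a low level, with 2.2 FPKM at day 3 and 0.890 at day 1. Of 18 early stress regulators, ERF13, ORA47, WRKY46 and RRTF1 fell, by 2.97, 2.70, 2.67 and 2.25. The zinc finger gene ZAT12 had 437 FPKM at day 3 and 438 at day 1. Of 9 tested immune genes PAD4 fell by 1.12 and no other was called.

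Sugar starvation genes fell. Of 15 tested, 10 fell and none rose, with a median ratio of -1.58. ASN1 (AT3G47340), the dark-inducible asparagine synthetase, had 20.9 FPKM at day 3 and 156 at day 1. DIN10, a raffinose synthase homologue, had 15.8 FPKM at day 3 and 80.1 at day 1, and DIN9 had 3.08 at day 3 and 16.1 at day 1. BCAT2 had the lowest ratio of the list, -2.92, at 0.458 FPKM at day 3 and 3.47 at day 1, and was not called. Of 14 autophagy genes ATG8E fell by 1.41 and no other was called. Of 8 genes of senescence and cell death, the nuclease gene RNS1 and the metacaspase gene MC9 fell by 1.74 and 1.63, and the protease gene CEP1 rose by a ratio of 2.82.

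Hypoxia genes gave a mixed picture. Of 14 tested, SUS4, SAD6 and the haemoglobin gene HB1 rose, with ratios of 1.87, 1.77 and 1.16, and SUS1 and HRA1 fell by 1.29 and 1.68. ADH1 and PDC1, the enzymes of ethanol fermentation, had 108 and 115 FPKM at day 3 and 74.4 and 79.3 at day 1 and were not called. Of 16 clock genes, 5 fell and 1 rose. The morning genes CCA1 and LHY fell by 1.15 and 0.85, and PRR7, RVE1 and BOA by 1.3, 0.98 and 1.66. GRP7 (AT2G21660), a clock-controlled RNA-binding protein, rose to 988 FPKM at day 3, against 278 at day 1. The labels state no hour of collection, so day and clock time cannot be told apart for these genes.

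Most genes of the nutrient and redox lists were not called. Over all tested genes, 5.88% rose and 8.48% fell. Of 12 phosphate genes 2 rose, the phospholipase gene NPC4 to 12 FPKM at day 3, against 1.74 at day 1, and PHO2 by a ratio of 1.01. Of 13 iron genes the ferritin genes FER1 and FER4 fell, by 0.94 and 1.43. Of 13 nitrogen genes the nitrate transporter NRT2.1 rose by a ratio of 1.27 and LBD37 fell by 1.08. Of 10 sulfur genes SDI1 rose by a ratio of 1.39. Of 9 indole glucosinolate genes CYP79B3 rose to 45.2 FPKM at day 3, against 14.4 at day 1, and MYB34 was listed at 0 at day 3 and 3.17 FPKM at day 1. Of 21 redox genes the catalases CAT1 and CAT2, APX2 and RBOHF fell, by 1.22, 1.06, 1.11 and 1.12. Of 6 flavonoid genes 4 fell, with chalcone synthase (CHS) at 24.8 FPKM at day 3 and 130 at day 1. Of 11 tested photosynthesis genes LHCB5 fell by 1.44 and no other was called. Ratios of 10 of the 11 were below 0, with a median of -1.42, some at low levels. LHCB6, for example, had 0.052 FPKM at day 3 and 1.56 at day 1. Of 4 light regulators HY5 fell by 1.07, and all 4 ratios were below 0, with a median of -0.87.

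The 12 highest and 12 lowest ratios were taken from genes with a symbol and at least 10 FPKM on the higher day. Of the 12 highest, 10 were called. After ESR1 came SK14, a SKP1-like gene, with 14.1 FPKM at day 3 and 0.718 at day 1, and XYP1, a lipid-transfer-type protein, with 74.9 at day 3 and 6.65 at day 1. The cutinase gene CDEF1 had 60.1 FPKM at day 3 and 6.31 at day 1, and the germin-like gene GLP9 had 196 at day 3 and 21.4 at day 1. The small cysteine-rich peptide genes PDF2.1 and SCRL26, the mitochondrial dehydrogenase gene NDB4 and the factor gene NF-YC13 had ratios of 3.34, 3.34, 2.98 and 2.93. ABCG2 of the suberin list was the remaining one. PRP4 had the highest ratio of all, 7.94, at 21.2 FPKM at day 3 and 0.0866 at day 1, and was not called (q 0.0578 in the authors' deposited table), nor was VSP1 (q 0.245 in the authors' deposited table).

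Of the 12 lowest ratios 11 were called. Besides RHS19, PRP3, RHS13 and ADF8 of the root hair list, these were the peptide genes RTFL12 and RALFL32 with ratios of -4.57 and -4.22, the peroxidase gene RCI3 with -3.91, BGAL4 with -3.83, the bHLH gene LRL3 with -3.56, WIH3 with -3.19 and RABG3B with -3.13. RTFL12 fell to 2.25 FPKM at day 3, against 53.3 at day 1. RCI3 fell to 6.97 FPKM at day 3, against 105 at day 1. ADF11 had a ratio of -3.37 and was not called (q 0.0633 in the authors' deposited table).

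Entries listed at 0 on 1 day need care. At day 1, 50 tested genes were listed at 0 and 25 of them were called higher at day 3, and at day 3, 171 were listed at 0 and 103 were called lower. The called ones were mostly low, with a median of 1.97 FPKM at day 3 for the first set and 1.68 FPKM at day 1 for the second. The highest entries at 0 were not low transcripts. PYK10 (AT3G09260), an abundant beta-glucosidase of the root, was listed at 0 at day 1 but had 796 FPKM at day 0 and 2906 at day 3, with a q of 1 in the authors' deposited table. The 18S ribosomal RNA gene AT3G41768 and the mitochondrial entries ATMG01390 and ATMG00020 were also listed at 0 at day 1, at 1912, 4394 and 1697 FPKM at day 3 and with the same q in the authors' deposited table. No ratio is given for these. The chloroplast entry ATCG00230 had 3024 FPKM at day 3, was listed at 0 at day 1 and at day 0, and was called (q 0.0244 in the authors' deposited table). At day 3 the highest entries listed at 0 were 4 snoRNA genes with 162 to 356 FPKM at day 1, none of them called.

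The largest differences in FPKM were seldom calls. Apart from entries listed at 0, the largest gain was AT3G18280, a lipid-transfer-type protein, with 2561 FPKM at day 3 and 1070 at day 1 (q 0.0549 in the authors' deposited table). The 6 largest losses included the small heat shock genes HSP17.6A, HSP17.4 and AT1G53540 and the senescence-associated gene SAG24, whose ratios lay between -0.84 and -0.59. None of the 6 was called.

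Whether these genes differed in samples that the comparison did not use was looked at in 3 other comparisons, none of which shares a library with day 3 or day 1. Markers gave no single direction for the tissue labels of the isolated cells. The 4 root meristem markers summed to 25.4 FPKM in isolated cells labelled meristematic and 33.9 in differentiated ones, of which WOX5 alone held 23.8 and 29.4. The 6 root hair markers summed to 470 FPKM in cells labelled meristematic and 315 in differentiated ones. The 3 root cap markers, of a tissue at the root tip, summed to 152 FPKM in cells labelled meristematic and 66.5 in differentiated ones. Between isolated cells, cells labelled meristematic had 4.63% of 17623 genes called higher and 3.12% called lower relative to differentiated ones. Of the 807 genes that rose at day 3 and could be tested there, 21.7% were lower and 4.09% higher in the cells labelled meristematic. Of the 1437 genes that fell at day 3, 3.13% were lower and 9.74% higher there. The median log2 ratio of meristematic over differentiated cells was -0.447 for genes that rose at day 3, 0.275 for genes that fell and 0.108 for all genes of the day 3 comparison. The genes that rose at day 3 are 31.9% of all genes called lower in the cells labelled meristematic, and the genes that fell are 17.2% of all called higher. Of all genes of the day 3 comparison, 16048 could be tested there. Both sets were chosen for levels at day 3 and day 1 and not for these ratios, and genes are not independent replicates, so no test is attached.

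In the constructs described here the root meristem markers summed to 3.5 FPKM at day 3 and 8.96 at day 1, and those of shoot green cells to 2.73 at day 3 and 4.03 at day 1. Only 2 of the 4 meristem markers and 1 of the 5 green cell markers reached 1 FPKM on either day, and none was called. WOX5 alone held 2.26 FPKM of the meristem sum at day 3 and 6.59 at day 1. The part of cell type composition in the changes above was not tested.

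In the other comparisons without day 3 or day 1, constructs were set against isolated cells at day 0. After printing, 5.08% of genes were higher and 7.38% lower in differentiated tissue, against 1.86% and 8.52% in meristematic tissue. Genes that fell at day 3 were called lower after printing in 15.6% of cases in differentiated and 15.9% in meristematic tissue, and higher in 7.11% and 3.96%, so both directions lay above the shares of all genes. Genes that rose at day 3 were called lower in 3.79% and 10.2%, and higher in 2.81% and 0.906%. The sets differed in level. In differentiated constructs at day 0 the median was 36.2 FPKM for genes that fell, 3.73 for genes that rose and 10 for all tested genes. From day 1 to day 3 the share of genes called grew with the level, and the part of level in the shares given here was not tested.

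**Figure D4:**
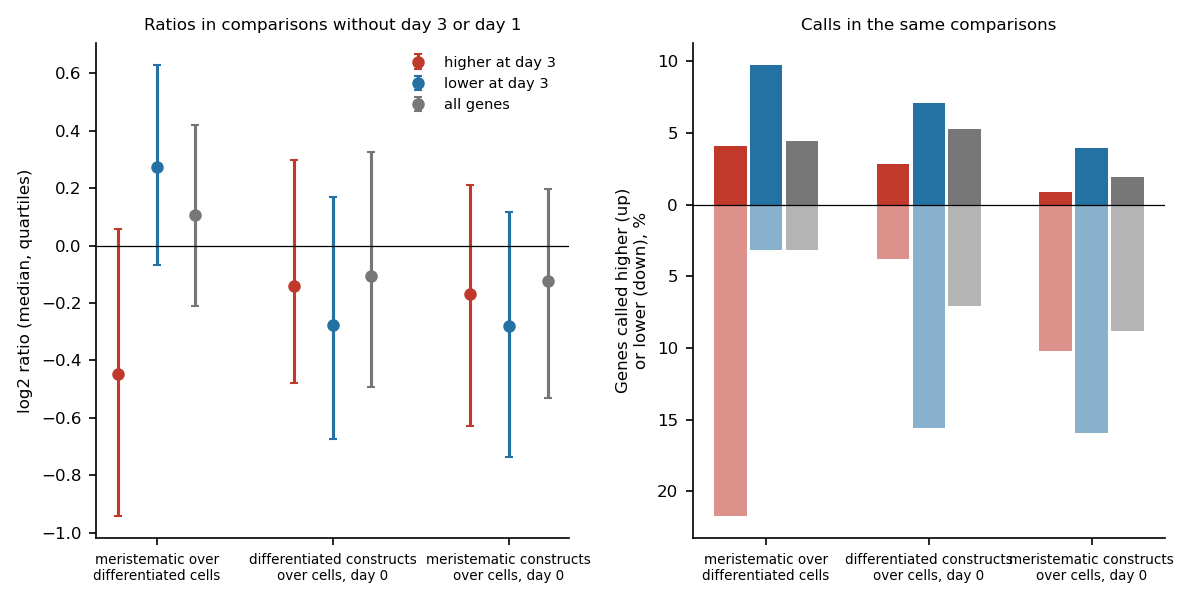
Left, the median log2 ratio with quartiles, and right, the percentage of genes called higher (bars up) or lower (bars down), in 3 comparisons that use no day 3 or day 1 library. Red marks genes that rose at day 3, blue those that fell and grey all genes of the day 3 comparison. The red set lies lowest in cells labelled meristematic, at a median of -0.447.

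Library totals overlapped between the days. Summed FPKM per library was 709225 and 808178 at day 3 and 758399, 671184 and 747143 at day 1. Day 3 libraries had 16157 and 16783 genes at 1 FPKM or more, and day 1 libraries had 16563, 16868 and 14779, so the groups overlap. The 10 highest values held 6.08% and 6.41% of the sum at day 3 and 6.47%, 6.80% and 7.56% at day 1, which do not overlap (exact two-sided permutation p 0.2, adjusted 0.8 over 4 measures). The smallest p that 2 against 3 libraries allow is 0.1. The pooled columns summed to 741440 FPKM at day 3 and 814415 at day 1. The mean library sums had the opposite order, 758701 at day 3 and 725576 at day 1. Rescaling the pooled columns to a common sum would add 0.135 to every log2 ratio.

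**Figure D5:**
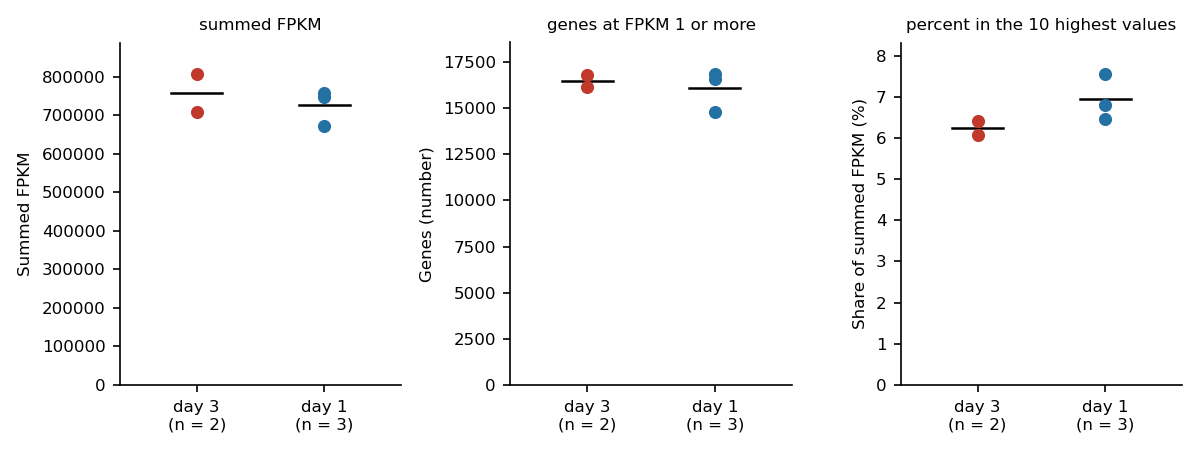
Summed FPKM, number of genes at FPKM 1 or more and the percentage of summed FPKM in the 10 highest values, for each library at day 3 (red, n = 2) and day 1 (blue, n = 3); bars are means and all axes start at 0. The groups overlap in the first and second measure.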

How the data were processed

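Per the labels' protocols, RNA was extracted with TRIzol, selected for poly(A) tails, made into directional libraries and sequenced in pairs of 150 bases. The submitters' processing notes name HISAT2 and Cufflinks, without version; their settings and the genome build are not stated in any source used here. Whether strand entered the counting is not stated either, so overlapping, antisense and near-identical genes are uncertain, and organelle RNA is read with the poly(A) selection in mind. The deposited FPKM values carry no read totals, so depth is unknown. The pooled FPKM, log2 ratios and q-values come from the authors' deposited table; no source used here tells how the authors made the q-value. Of its entries 282 join several gene IDs. Ratios were computed from the pooled FPKM and differed by over 0.01 from the deposited log2 ratios in 2 of 20561 entries.

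A deposited table with 1 FPKM column per library does not hold each gene on its own line: over its 33560 lines, the day 3 and day 1 libraries correlated with their own pooled column at 0.195 to 0.327, while the 2 pooled columns correlated at 0.965. It was used for the library measures only. Among them, the share at lines named for organelle genes goes by the line's name, so it cannot be read as the share of those genes. The planned limma fit on windows of 51 lines was not run, because runs of up to 106 lines at 0 exceed the window. Promoter motifs were not searched, as the build is not named. The design named the authors' q-value as the test for the counts past 2-fold, where the deposited table held this comparison. For the gene lists it planned counts past 2-fold. The list counts given here use the q-value alone, so they include called members that changed by less than 2-fold, such as LHY.

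Members and 47 lists (719 genes, 10 dropped because their name did not match) were chosen with earlier results of these data known. Of 709 list genes 702 were in the table. Names come from TAIR10.1 in RefSeq, matched by ID, and 10458 single IDs had a symbol. Named genes were the 12 highest and 12 lowest ratios with a symbol and FPKM of 10 or more, up to 4 genes a direction listed at 0, the 6 largest FPKM differences each way, up to 4 members of each list with the largest ratios, and SCR; other list members were named after their values were seen. The calling code was run on simulated data in which the changed genes were given a low q. That checks how the code applies the thresholds, and cannot test the calls themselves. Library measures were compared by exact permutation; labels do not say whether libraries came from separate plants, so p-values measure the spread between them. Python 3.11.15, numpy 2.4.6, pandas 2.3.3 and matplotlib 3.10.9 were used. Some genes that meet the rule for named genes are not reported here.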

Additional observations from a re-analysis of the deposited data

How the results depend on the processing

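The counts of 911 higher and 1390 lower genes were recomputed under other settings, with the authors' q-values kept as deposited. Only the ratio and the filter could thus move a gene, and whether the q-values depend on the scaling was not tested. Within that limit the counts stayed within 1.5 times under TPM rescaling, quantile normalization, median-ratio factors and pseudocounts of 1 and 0.1. They also did under filters of 5 FPKM on either day, 1 FPKM on both days, or above 0 on both days. The counts ran from 741 to 1028 higher and from 1093 to 1381 lower. A 3-fold threshold left 313 and 777. Chosen after seeing the data, the q-value alone gave 1035 and 1493, and 2-fold alone with no q gave 1971 and 2266. TPM and median-ratio factors add 0.135 and 0.031 to every ratio, less than the smallest called ratio of 0.838, so no call can turn under them; under quantile normalization none of 2400 called genes with a ratio changed direction. The median of all genes, -0.030, became 0.105 under TPM. List medians changed sign under TPM for G1 regulators (0.056), primary wall (0.019), cytokinin (0.056), iron (0.002) and tubulins (0.053). Leaving out 1 day 1 library in turn, the difference of day 3 minus day 1 in summed FPKM ran from 5930 to 49538, in genes at 1 FPKM from -245.5 to 799, in the share of the 10 highest values from -0.935 to -0.388 points, and at lines named for organelle genes from -0.686 to 0.517 points; the change of sign came from replicate 3 for the genes and replicate 2 for the organelle lines. No paired analysis was possible because the per-gene result comes from pooled columns, and the planned window fits, with their replicate block and left-out libraries, were not run. With 2 libraries at day 3, and no value per library for a gene, the weight of a single library in any call was not tested.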

Other observations

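By RefSeq gene type, 16784 tested genes were protein-coding, of which 1002 were higher and 1435 lower at day 3. Of 100 tested pseudogenes 8 were higher and 14 lower, and of 16 miRNA precursor genes 1 was higher and 3 lower. None of 105 long noncoding RNA genes was called; the authors' deposited table gives no unadjusted p for them. Of 23 snoRNA genes 1 was called, lower at day 3.

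In the pooled columns, entries of the chloroplast genome held 0.478% of summed FPKM at day 3 and 0.0351% at day 1, and those of the mitochondrial genome 1.63% at day 3 and 0.912% at day 1. Abundant entries of both genomes were listed at 0 at day 1. At day 3 the chloroplast entry ATCG00230 had 3024 FPKM, of a pooled sum of 741440. The mitochondrial entries ATMG01390 and ATMG00020 had 4394 and 1697 FPKM at day 3. These 3 entries thus count in the day 3 shares and add nothing to the day 1 shares, so the shares of the 2 days do not cover the same entries. Shares without them were not computed, and the part of those zeros in the difference was not tested.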
